A study of Mus musculus with 564 samples.

Results

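Promoter elements were taken as the cis-regulatory elements (CREs, the deposited peaks of accessible chromatin at which H3K27ac was counted) whose centre lay within 1 kb of a RefSeq transcription start of a protein-coding gene on GRCm38, the build the submitters call mm10. By this rule 11507 of 59190 CREs were promoter elements and 47683 were not. The rule used position alone and no measured level. Libraries were made by H3K27ac ChIP-seq from bone marrow-derived macrophages (BMDMs), primary cells that grow from bone marrow progenitors of mice and are not a clonal line. All donors were wild-type male C57BL/6 mice, which by the methods were 6 to 8 weeks old, and the labels do not give which libraries came from the same mice or culture. Cells were first exposed for 1 h to DMSO, the solvent control, or to 1 of 58 clinical kinase inhibitors (CKIs). They were then left untreated (UT) or given LPS or IL-4 for 30 min, 1 h, 2 h or 4 h. Of 564 libraries, 18 were from DMSO-treated cells (9 groups of 2), and 546 were from cells given a CKI, with 474 groups of 1 library and 36 groups of 2. The UT libraries served as time 0 of both time courses, so the LPS and IL-4 comparisons share them. The CKIs were not used at 1 common dose, each having been given at a concentration set from its binding to its intended target.

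A promoter is the DNA around a transcription start, where general factors and RNA polymerase II assemble. Acetylation of lysine 27 of histone H3 is placed by the acetyltransferases p300 and CBP and marks the nucleosomes beside active promoters and enhancers. Many mammalian promoters lie in CpG-rich DNA and are active in most cell types, whereas CpG-poor promoters more often belong to genes that 1 tissue or a stimulus switches on. In macrophages LPS binds TLR4 and activates NF-kB, the MAP kinases and the interferon pathway, and IL-4 acts through the JAK kinases and STAT6. Since the libraries were made from many cells together, more cells carrying the mark at an element and more mark per cell cannot be told apart.

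The promoters shown first are those to which the results below return. For each gene the 120 bases that precede its RefSeq start are printed, from the RefSeq sequence of GRCm38 and read in the direction of the gene. None of these stretches overlaps an exon. Motifs were searched as plain letters on both strands, so that a match is a description of the sequence and no evidence of binding. For Il6, Gbp5 and Cxcl1, whose elements gained H3K27ac after LPS, capitals mark a match to the NF-kB letters GGANTTTCC, with N for any base. They span chr5:30012994-30013113, plus strand for Il6, chr3:142496814-142496933, plus strand for Gbp5 and chr5:90891125-90891244, plus strand for Cxcl1.
Il6: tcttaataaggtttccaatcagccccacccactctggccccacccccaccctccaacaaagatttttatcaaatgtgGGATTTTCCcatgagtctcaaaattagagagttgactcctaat
Gbp5: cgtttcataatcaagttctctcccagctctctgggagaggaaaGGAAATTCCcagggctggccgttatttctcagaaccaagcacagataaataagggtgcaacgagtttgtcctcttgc
Cxcl1: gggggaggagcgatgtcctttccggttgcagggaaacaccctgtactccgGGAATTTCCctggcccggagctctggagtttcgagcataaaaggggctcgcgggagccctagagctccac
In Gbp2 and Gbp7, genes of interferon-induced GTPases, and in Zbp1, which encodes an innate sensor of nucleic acids, capitals mark the IRF letters GAAANNGAAA, here read on the strand opposite to the gene. Zbp1 held 4 overlapping or adjacent matches. The stretches are chr3:142620543-142620662, plus strand for Gbp2, chr2:173218923-173219042, minus strand for Zbp1 and chr3:142530216-142530335, plus strand for Gbp7.
Gbp2: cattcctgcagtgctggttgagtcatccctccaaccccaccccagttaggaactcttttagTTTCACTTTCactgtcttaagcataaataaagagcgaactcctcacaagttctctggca
Zbp1: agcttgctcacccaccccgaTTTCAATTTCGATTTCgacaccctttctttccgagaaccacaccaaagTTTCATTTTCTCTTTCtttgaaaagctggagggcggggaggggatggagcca
Gbp7: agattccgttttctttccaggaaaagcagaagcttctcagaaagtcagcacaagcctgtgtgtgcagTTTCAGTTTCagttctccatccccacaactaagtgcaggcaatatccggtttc
Capitals in Pdcd1lg2, which encodes the checkpoint ligand PD-L2, and in Tmem26 mark the STAT6 letters TTCNNNNGAA. These lie at chr19:29410799-29410918, plus strand for Pdcd1lg2 and chr10:68723626-68723745, plus strand for Tmem26.
Pdcd1lg2: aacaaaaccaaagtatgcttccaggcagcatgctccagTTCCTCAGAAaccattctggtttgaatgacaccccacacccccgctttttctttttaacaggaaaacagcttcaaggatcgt
Tmem26: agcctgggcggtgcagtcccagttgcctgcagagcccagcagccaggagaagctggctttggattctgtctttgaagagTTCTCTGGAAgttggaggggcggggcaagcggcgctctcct
Med11, which encodes a Mediator subunit, is shown for the elements that neither stimulus moved past the thresholds. Capitals mark the NRF1 letters GCGCNTGCGC, in chr11:70451798-70451917, plus strand.
Med11: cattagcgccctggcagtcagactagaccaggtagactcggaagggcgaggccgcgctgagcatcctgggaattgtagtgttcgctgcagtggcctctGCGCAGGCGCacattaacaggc

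The 11507 elements covered starts of 11545 genes, and 10482 genes were the nearest to at least 1 of them. For 856 genes there were 2 or more elements, which are therefore not independent of each other. Starts of 2 or more genes lay within 1 kb of 1167 elements (10.1%), and 1129 elements (9.81%) had starts on both strands, so that their reads cannot be divided between the genes. Elements are named here by the gene with the nearest start. Their median width was 1956 bp against 1634 bp for the other CREs, their centres lay at a median of 119 bp from the start, and 11312 of them held the start itself. In 248 elements more than 20% of the 51-base words occurred elsewhere in the genome. At the edge of the rule, the 214 elements with centres 900 to 1000 bp away had a median of 99 normalized reads in UT, and the 200 elements just outside had 83. A further 406 CREs held a start but were so wide, at a median of 4447.5 bp, that their centres fell more than 1 kb away. The elements of Tnf, Il1b, Nfkbia, Ccl5, Cish, Csf1r and Actb are among these and are not members.

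Promoter elements carried a higher level of H3K27ac than the rest of the CREs. In UT the median level over promoter elements was 145 normalized reads, the mean of 2 libraries whose own medians were 142 and 147, with quartiles of 69 and 253.5. The other 47683 elements had a median of 25.5 and quartiles of 8.5 and 80.5. Per kb of element the medians were 68.4 and 14.6 normalized reads, so the difference was not one of width alone. Promoter elements below 10 normalized reads were 5.72% of the total, against 27.7% of the other CREs. Together promoter elements held 36.9% ± 1.29 (SD, n = 2) of all normalized reads in UT. After IL-4 this share was 34.9% ± 0.482 at 30 min, 39.2% ± 1.70 at 1 h, 40.7% ± 1.31 at 2 h and 38.9% ± 0.705 at 4 h, and after LPS it lay between 35.7% ± 2.31 at 4 h and 38.0% ± 1.62 at 1 h. Spi1, which encodes PU.1, the factor that specifies the macrophage lineage, held 2046 and 2118 normalized reads in UT.

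The identity of the cells was checked at the promoters of marker genes. Promoter elements of 18 macrophage genes had a median of 548.25 normalized reads in UT. T-cell and B-cell genes each had 1 promoter element, Cd28 with 242 and 224 and Ebf1 with 0 and 1. Fibroblast and endothelial genes had 2, with a median of 5, and neutrophil genes had 3, with a median of 12.5. Normalized totals of the DMSO libraries were 5923680 to 6873668, and the spacing of their low values gave estimates of 2345350 to 5406530 reads in 16 of them. CKI libraries were shallower, with estimates of 342901 to 6008300 reads and a median of 1858080 in 530 libraries. Signal and background were also set less far apart in them. The median of the strongest 10% of elements divided by that of the weakest 10%, here called contrast, was 53 to 134 in the DMSO libraries and 3.34 to 67.2 in the CKI libraries, with a median of 17.6.

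The first question was how many promoter elements change after each stimulus in DMSO-treated cells. Elements were tested with limma on log2(normalized reads + 5), and an element was called when its moderated F-test over the 4 times gave a Benjamini-Hochberg adjusted p below 0.01 and its largest difference from UT exceeded 1 on the log2 scale. After LPS 3450 of 11044 tested promoter elements were called (31.2%), against 53.5% of all 50697 CREs tested. Of these, 1592 were higher (14.4%) and 1858 lower (16.8%), where the shares over all tested CREs were 29% and 24.5%. After IL-4 816 of 10936 promoter elements were called (7.46%), against 24.7% of 47018 CREs. There, 540 were higher (4.94%) and 276 lower (2.52%), beside 13.6% and 11% of all CREs. The share called was thus smaller at promoter elements than over all CREs in both directions and after both stimuli. Of the CREs away from promoters, 59.7% were called after LPS and 29.9% after IL-4. The median of the largest absolute difference was 0.73 at promoter elements and 1.34 elsewhere after LPS, and 0.44 and 0.78 after IL-4. The p-values measure the spread between these libraries, which may be technical.

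Low shares at promoters were also seen within ranges of level and in 2 ranges of width. When all tested CREs were divided by mean level into 5 bins of equal number, the promoter elements called after LPS were 17.1%, 38.2%, 37.6%, 27.9% and 32.0% from the lowest to the highest bin, and the other CREs 26.5%, 58.1%, 73.6%, 78.8% and 75.3%. For IL-4 the promoter shares were 7.33%, 17.7%, 11.3%, 6.16% and 5.35%, and those of other CREs 11.9%, 30.8%, 40.5%, 40.7% and 31.3%. In each bin and after both stimuli the promoter share was the smaller one. Among elements 1500 to 2500 bp wide, 27.7% of promoter elements and 58.3% of others were called after LPS, and above 2500 bp 40.0% and 69.0%. After IL-4 these shares were 7.46% and 29.7%, and 7.44% and 31.4%. Below 1500 bp there were few elements, with 43.8% of 16 promoter elements and 45.5% of 101 others called after LPS, and 14.3% of 14 and 12.2% of 98 after IL-4.

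By time, LPS gave the largest number of promoter calls at 2 h. Past the thresholds at a given time (adjusted p below 0.01 and over 1 on the log2 scale), 728 promoter elements were higher at 30 min (6.59%, against 16.3% of all CREs), 881 at 1 h (7.98%, against 19.5%), 1057 at 2 h (9.57%, against 21.3%) and 890 at 4 h (8.06%, against 20.5%). Lower promoter elements numbered 1024 at 30 min (9.27%, against 13.1%), 835 at 1 h (7.56%, against 15.1%), 1351 at 2 h (12.2%, against 19.7%) and 970 at 4 h (8.78%, against 15.8%). After LPS the falls outnumbered the rises at 30 min and 2 h. At 1 h the order turned under another scaling, with 864 higher and 906 lower after quantile normalization and 716 and 1048 when libraries were rescaled to their median ratio over all CREs, a choice made after seeing the data, and with 790 and 826 without replicate 2 of that time. At 4 h it turned without replicate 2 of UT (876 higher, 866 lower) and with a pseudocount of 20 (734 and 728). With IL-4, 252 promoter elements were higher at 30 min (2.30%, against 10.9%), 368 at 1 h (3.37%, against 9.46%), 380 at 2 h (3.47%, against 8.69%) and 275 at 4 h (2.51%, against 8.61%). Lower elements were 77 at 30 min (0.704%, against 1.96%), 84 at 1 h (0.768%, against 4.6%), 160 at 2 h (1.46%, against 8.66%) and 154 at 4 h (1.41%, against 6.37%). IL-4 rises outnumbered falls at each time, although after quantile normalization the counts were 184 higher and 154 lower at 30 min and 282 and 113 at 1 h, and after median-ratio rescaling they were 194 and 144 at 30 min.

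**Figure D1:**
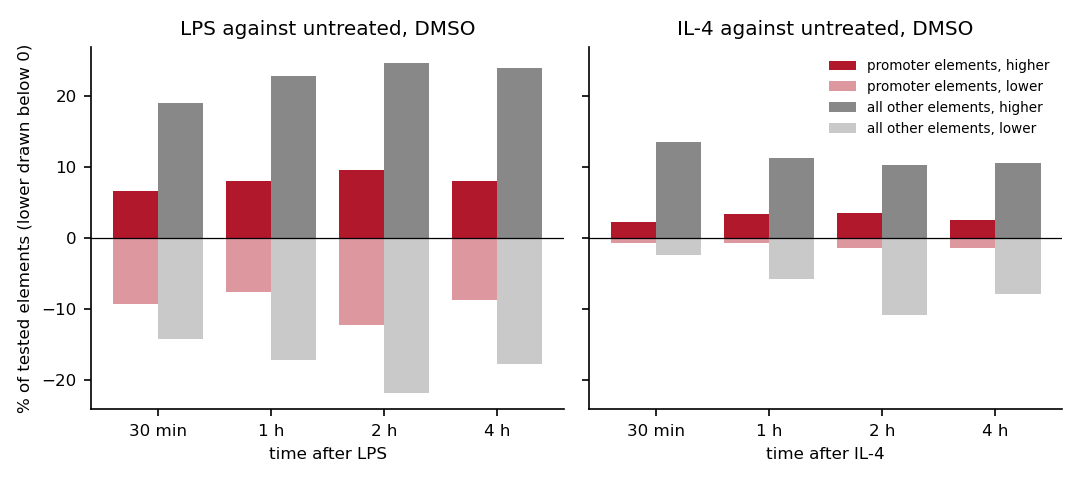
Share of tested elements past the thresholds (adjusted p below 0.01 and a log2 difference over 1) at each time after LPS (left) and IL-4 (right) in DMSO-treated cells, with higher elements above 0 and lower elements below 0 on the vertical axis in percent. Red bars are promoter elements and grey bars all other elements. At 2 h of LPS 9.57% of promoter elements were higher and 12.2% lower, and at 2 h of IL-4 3.47% were higher and 1.46% lower, each below the grey bar beside it.

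Most promoter elements moved little at any one time. At 2 h of LPS the central 90% of promoter differences ran from -1.56 to 1.53 on the log2 scale, and at 2 h of IL-4 from -0.61 to 0.89. Differences within 0.5 of 0 were 52.1% to 58.8% of promoter elements over the LPS times and 73.7% to 82.9% over the IL-4 times, with a median SE of 0.18 and 0.15. The median promoter difference was -0.04, 0.11, -0.02 and 0.03 at 30 min, 1 h, 2 h and 4 h of LPS. For IL-4 it was 0.05, 0.18, 0.20 and 0.17, while the median of other CREs was 0.11, -0.06, -0.16 and -0.03.

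Among the 1592 elements raised by LPS, the largest difference fell at 30 min in 381, at 1 h in 311, at 2 h in 608 and at 4 h in 292. For the 1858 lowered elements these numbers were 518, 185, 846 and 309. Past the thresholds at all 4 times were 284 raised and 367 lowered elements, and at only 1 time 561 and 688. The median size was 1.5 for rises and -1.45 for falls, and 410 rises and 340 falls exceeded 2 on the log2 scale. After IL-4, 132 of the 540 raised and 12 of the 276 lowered elements were past the thresholds at all 4 times, and 78 rises and 20 falls exceeded 2.

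The largest LPS rises came from elements that were nearly empty in UT. Il6, the gene of a cytokine that drives fever and the acute phase, had an element at chr5:30012104-30015562 in the class of low CpG content, with 30 and 31 normalized reads in UT. After LPS it held 117 and 106 at 30 min, 271 and 257 at 1 h, 628 and 666 at 2 h and 686 and 611 at 4 h (log2 difference 4.20 ± 0.15 at 4 h, adjusted p = 6.3e-23). Both libraries of each LPS time were above both UT libraries. In Nos2, which encodes the inducible nitric oxide synthase, the element at chr11:78919062-78921471 went from 11 and 9 to 13 and 19 at 30 min, 106 and 91 at 1 h, 270 and 251 at 2 h and 370 and 314 at 4 h (log2 difference 4.53 ± 0.23 at 4 h, adjusted p = 6.1e-20). Little of this rise was present at 30 min. Lcn2 encodes an iron-sequestering defence protein, and its element at chr2:32387012-32390164 held 14 and 6 in UT and 33 and 16 at 30 min, 76 and 68 at 1 h, 215 and 185 at 2 h and 519 and 487 at 4 h after LPS (log2 difference 5.13 ± 0.26 at 4 h, adjusted p = 2.1e-18). At Fpr2, the gene of a receptor for formylated peptides, the element at chr17:17887002-17888992 rose from 34 and 29 to 102 and 90 at 30 min, 398 and 290 at 1 h, 873 and 829 at 2 h and 935 and 843 at 4 h (log2 difference 4.62 ± 0.16 at 4 h, adjusted p = 6.1e-24). Each of these 4 elements had its largest difference at 4 h.

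An early and transient course was seen at Nr4a3, which encodes an orphan nuclear receptor of the immediate early class. The element at chr4:48046386-48048924 held 10 and 10 in UT and 190 and 199 at 30 min, 331 and 332 at 1 h, 211 and 234 at 2 h and 43 and 46 at 4 h after LPS (log2 difference 4.49 ± 0.20 at 1 h, adjusted p = 2.1e-20). It was highest at 1 h and had lost most of the gain by 4 h, when it still lay above UT. A similar course was seen at Il12b, the gene of the p40 subunit of IL-12 and IL-23, with 12 and 12 in UT and 86 and 115 at 30 min, 232 and 212 at 1 h, 136 and 130 at 2 h and 32 and 28 at 4 h after LPS, and at Cxcl1, a neutrophil chemokine, with 23 and 20 and then 165 and 147 at 30 min, 146 and 142 at 1 h, 110 and 84 at 2 h and 16 and 31 at 4 h. At Cxcl1 the 4 h libraries overlapped the UT libraries. Further rises named by their size were Zfp811 (5.30), Cfb (4.91), Lipg (4.86), Ifi205 (4.75), Adora2a (4.55), Serpina3f (4.34), Pou2f2 (4.34) and Lhx2 (4.33) as largest log2 differences. Cfb encodes complement factor B, Lipg a secreted lipase and Adora2a an adenosine receptor.

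The 8 largest falls after LPS were of elements with over 300 normalized reads in UT. The largest was at Foxp1, a forkhead repressor of macrophage differentiation, whose element at chr6:99433837-99437369 held 840 and 949 in UT and 655 and 679 at 30 min, 305 and 296 at 1 h, 33 and 34 at 2 h and 76 and 53 at 4 h after LPS (log2 difference -4.54 ± 0.16 at 2 h, adjusted p = 1.5e-23). Pf4, the gene of platelet factor 4, fell from 628 and 606 to 244 and 276 at 30 min, 165 and 220 at 1 h, 89 and 70 at 2 h and 37 and 38 at 4 h (log2 difference -3.87 ± 0.18 at 4 h, adjusted p = 5.3e-19). In both genes no LPS library reached the UT level. Zfyve28 (-3.97), Slc26a11 (-3.50), whose element also lies at the start of Sgsh, Atp6v0d2 (-3.44), Ppcdc (-3.36) and Syngr1 (-3.35) were also among the 8. Atp6v0d2 encodes a subunit of the vacuolar proton pump.

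IL-4 raised a smaller set of elements, and the strongest were also nearly empty in UT. The Pdcd1lg2 element at chr19:29410037-29411675 held 6 and 8 in UT and 103 and 122 at 30 min, 217 and 214 at 1 h, 276 and 293 at 2 h and 300 and 267 at 4 h after IL-4 (log2 difference 4.60 ± 0.17 at 2 h, adjusted p = 1.8e-28). Its LPS libraries held 23 and 13 at 30 min, 12 and 10 at 1 h, 16 and 27 at 2 h and 38 and 26 at 4 h, well under the IL-4 libraries of the same times, and the LPS call of 1.61 was lost with a pseudocount of 20 and after quantile normalization. Il31ra, which encodes a subunit of the IL-31 receptor, had the largest rise, from 4 and 6 at chr13:112550945-112552967 to 89 and 118 at 30 min, 129 and 190 at 1 h, 226 and 288 at 2 h and 334 and 282 at 4 h (log2 difference 4.97 ± 0.20 at 4 h, adjusted p = 9.8e-27). Tmem26, a membrane protein gene, went from 10 and 15 to 83 and 63 at 30 min, 115 and 102 at 1 h, 169 and 161 at 2 h and 260 and 263 at 4 h (log2 difference 3.94 ± 0.20 at 4 h, adjusted p = 8.1e-22). Every IL-4 library of these 3 elements was above both UT libraries from 30 min on. Arg1, whose product arginase is the classical marker of IL-4-treated macrophages, started higher, at 123 and 141 (chr10:24926716-24929154), and reached 692 and 604 at 30 min, 654 and 656 at 1 h, 671 and 747 at 2 h and 617 and 564 at 4 h (log2 difference 2.38 ± 0.10 at 2 h, adjusted p = 3.1e-26). After LPS Arg1 fell to 46 and 43 at 30 min, 55 and 33 at 1 h, 71 and 65 at 2 h and 83 and 56 at 4 h (log2 difference -1.52 ± 0.25 at 1 h, adjusted p = 9.4e-06). Others among the largest IL-4 rises were Aifm3 (4.60), Syce1l (4.19), Lrrc8b (4.18), Rasgrp1 (4.17) and Gm33049 (3.74), on the same scale.

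IL-4 falls were fewer than the rises, with a median size of 1.26 against 1.29 on the log2 scale. Ifitm6, of the interferon-induced transmembrane family, had the largest of the falls named here, from 596 and 564 at chr7:141016049-141018244 to 393 and 393 at 30 min, 240 and 211 at 1 h, 95 and 121 at 2 h and 189 and 157 at 4 h (log2 difference -2.38 ± 0.13 at 2 h, adjusted p = 8.6e-21). Clec4d, the gene of a C-type lectin receptor for mycobacterial glycolipid, fell from 729 and 745 to 611 and 539 at 30 min, 274 and 317 at 1 h, 155 and 154 at 2 h and 155 and 212 at 4 h (log2 difference -2.22 ± 0.12 at 2 h, adjusted p = 1.6e-22). The IL-4 libraries of both genes from 1 h on were far below UT. Foxp1 also fell after IL-4, to 459 and 343 at 30 min, 244 and 267 at 1 h, 208 and 218 at 2 h and 273 and 306 at 4 h (log2 difference -2.04 ± 0.12 at 2 h, adjusted p = 7.2e-20). Smad3, a transducer of TGF-beta signals, was lower after IL-4 (-2.10) and after LPS went from 69 and 55 in UT through 320 and 336 at 30 min, 101 and 72 at 1 h, 22 and 12 at 2 h and 71 and 66 at 4 h, so that it was high at 30 min and low at 2 h. Ltbp2 (-2.27), Sgms1 (-2.23) and Galnt9 (-2.14) were others of the 20 falls over 2.

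**Figure D2:**
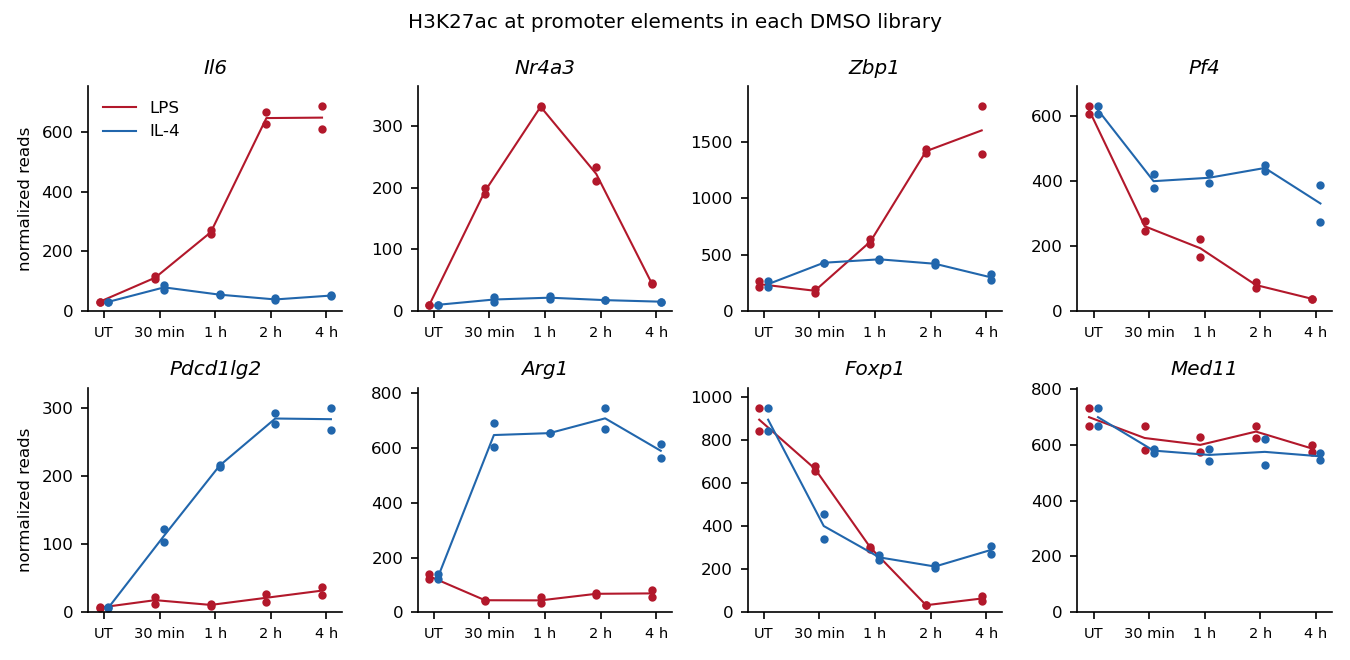
Normalized reads (vertical axes) in every DMSO library by time (horizontal axes) at the promoter elements of Il6, Nr4a3, Zbp1, Pf4, Pdcd1lg2, Arg1, Foxp1 and Med11, with LPS in red and IL-4 in blue. Points are libraries, 2 at each time, and lines join their means. Il6 and Zbp1 climbed after LPS to 4 h, Nr4a3 peaked at 1 h, Pf4 and Foxp1 fell after LPS, Pdcd1lg2 and Arg1 climbed after IL-4, and Med11 stayed between 527 and 731 normalized reads in all libraries.

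Groups of genes were then described by their promoter elements. Their counts are to be read beside all tested promoter elements, of which 14.4% rose and 16.8% fell after LPS. After IL-4 these shares were 4.94% and 2.52%. Over all tested CREs 29% rose and 24.5% fell after LPS, and 13.6% and 11% after IL-4. Of 18 elements of inflammatory cytokine genes, 17 rose after LPS and 0 fell (limma), and 18 were higher and 0 lower at an unadjusted p under 0.05. Counts of this kind use the same moderated F-test over the 4 times with no limit on size, and direction is that of the largest difference. Besides Il6, Il1a, the gene of IL-1 alpha, went from 24 and 29 to 317 and 378 at 30 min, 408 and 405 at 1 h, 514 and 487 at 2 h and 349 and 288 at 4 h (log2 difference 4.01 ± 0.15 at 2 h, adjusted p = 7.6e-22). Il10 (366 and 377 in UT, largest LPS difference 0.37), the gene of an anti-inflammatory cytokine, was 1 that did not pass at its element. After IL-4, 3 of 14 rose and 1 fell. Il1a held 121 and 103 at 30 min of IL-4 (1.89), and Il6 held 87 and 71 at 30 min, 52 and 57 at 1 h, 35 and 42 at 2 h and 51 and 52 at 4 h (log2 difference 1.24 ± 0.24 at 30 min, adjusted p = 0.00031), a call that a pseudocount of 20 removed. Chemokine elements were divided, with 7 of 14 higher and 4 lower after LPS. Ccl24, an eosinophil chemokine, fell after LPS (-2.13) and rose after IL-4 from 62 and 51 to 186 and 218 at 1 h (1.75).

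Elements of interferon-stimulated genes rose late. After LPS 33 of 34 elements rose and 0 fell (limma), with 34 higher and 0 lower at an unadjusted p under 0.05 and list medians of -0.04 at 30 min, 0.96 at 1 h, 1.88 at 2 h and 1.78 at 4 h beside promoter medians close to 0. Zbp1, at chr2:173216907-173219853, held 265 and 211 in UT and 162 and 196 at 30 min, 592 and 642 at 1 h, 1399 and 1440 at 2 h and 1817 and 1391 at 4 h after LPS (log2 difference 2.72 ± 0.13 at 4 h, adjusted p = 1.8e-22). Its 30 min libraries were not above UT, and the 2 h and 4 h libraries were the highest. Gbp2 held 192 and 194 and then 419 and 405 at 30 min, 858 and 724 at 1 h, 1336 and 1420 at 2 h and 1139 and 1169 at 4 h (log2 difference 2.80 ± 0.11 at 2 h, adjusted p = 5.9e-22), and Gbp7 160 and 172 and then 221 and 231 at 30 min, 556 and 520 at 1 h, 1158 and 1058 at 2 h and 822 and 838 at 4 h. Gbp5 went from 91 and 116 to 295 and 373 at 30 min, 432 and 451 at 1 h, 701 and 721 at 2 h and 640 and 614 at 4 h (log2 difference 2.73 ± 0.14 at 2 h, adjusted p = 1.7e-18). Irf7, the master factor of type I interferon induction, held 228 and 231 in UT and 188 and 202 at 30 min, 419 and 348 at 1 h, 855 and 796 at 2 h and 1017 and 984 at 4 h (log2 difference 2.10 ± 0.12 at 4 h, adjusted p = 2.8e-19). IL-4 raised 1 of these elements past the thresholds, Irf7 (1.08 at 1 h), while 20 were higher and 6 lower at an unadjusted p under 0.05. At Zbp1 the IL-4 libraries held 428 and 428 at 30 min, 455 and 462 at 1 h, 431 and 407 at 2 h and 324 and 274 at 4 h and were not called. Ifnb1, which encodes interferon beta, was itself early, with 31 and 30 in UT and 223 and 273 at 30 min, 472 and 423 at 1 h, 402 and 301 at 2 h and 205 and 179 at 4 h after LPS (log2 difference 3.67 ± 0.17 at 1 h, adjusted p = 3.1e-19). The rise at Ifnb1 thus stood at 30 min, before that of the list.

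Elements of NF-kB subunits and feedback inhibitors rose early and stayed up, 12 of 16 after LPS with medians of 1.67, 1.57, 1.48 and 1.49 over the 4 times. By limma 0 fell, and 1 was lower at an unadjusted p under 0.05. Nfkbib, the gene of an inhibitor of NF-kB, held 209 and 215 in UT and 1170 and 1204 at 30 min, 764 and 818 at 1 h, 705 and 709 at 2 h and 708 and 716 at 4 h after LPS, at an element it shares with Sirt2. At Tnfaip3, which encodes the ubiquitin-editing inhibitor A20, 204 and 219 in UT became 929 and 977 at 30 min of LPS, and 510 and 440 at 30 min of IL-4. Rela did not pass (0.94). After IL-4, 4 elements of this list rose. Of 23 elements of immediate early factors 7 were higher and 7 lower after LPS, where 29% and 24.5% of all tested CREs and 14.4% and 16.8% of promoter elements were. Maff, a small Maf factor, held 95 and 82 in UT and 772 and 802 at 30 min, 355 and 405 at 1 h, 234 and 229 at 2 h and 117 and 123 at 4 h (log2 difference 3.09 ± 0.15 at 30 min, adjusted p = 4.7e-19), whereas Fos, with 580 and 638 in UT, was at 227 and 241 at 2 h of LPS (-1.36) and 219 and 231 at 4 h of IL-4 (-1.42). Egr2, a zinc finger factor, rose after both, to 754 and 759 at 30 min, 702 and 785 at 1 h, 221 and 231 at 2 h and 168 and 209 at 4 h after LPS and 737 and 743 at 30 min, 852 and 694 at 1 h, 726 and 678 at 2 h and 543 and 574 at 4 h after IL-4, from 211 and 219. The LPS gain at Egr2 was gone at 2 h and the IL-4 gain was present at 4 h.

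Of 17 elements of MAP kinase phosphatases and SOCS genes, negative regulators of signalling, 8 rose and 1 fell after LPS, and 6 rose and 1 fell after IL-4. Socs1, an inhibitor of JAK kinases, held 251 and 274 in UT and 1160 and 1277 at 30 min, 1264 and 1217 at 1 h, 1348 and 1191 at 2 h and 917 and 968 at 4 h after IL-4 (log2 difference 2.25 ± 0.08 at 2 h, adjusted p = 6.3e-29), and 1501 and 1418 at 2 h of LPS (2.45). Socs2 rose after IL-4, with 37 and 31 in UT and 163 and 153 at 30 min, 290 and 263 at 1 h, 304 and 304 at 2 h and 138 and 158 at 4 h (log2 difference 2.99 ± 0.15 at 2 h, adjusted p = 4.5e-22), and was not called after LPS. Socs3, which restrains IL-6 receptor signals, rose after LPS to 960 and 928 at 30 min, 1134 and 1181 at 1 h, 1306 and 1234 at 2 h and 1298 and 1279 at 4 h from 269 and 222 and was high at 30 min and 1 h of IL-4, at 533 and 503 and 511 and 503, an IL-4 call that quantile normalization removed. The fall was Dusp6, a phosphatase of ERK, which went from 955 and 1096 to 250 and 251 at 2 h of LPS (-2.01).

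Known IL-4 and STAT6 targets gave 13 rises and 1 fall among 19 tested elements after IL-4, with medians of 0.91, 1.14, 1.13 and 1.13. After LPS the same list had 6 rises and 8 falls among 21. Mgl2, a macrophage lectin, held 95 and 78 in UT, 564 and 524 at 30 min, 487 and 499 at 1 h, 430 and 486 at 2 h and 480 and 461 at 4 h after IL-4 (log2 difference 2.59 ± 0.11 at 30 min, adjusted p = 8.1e-26) and 33 and 36 at 30 min, 31 and 23 at 1 h, 16 and 15 at 2 h and 11 and 21 at 4 h after LPS. Its IL-4 and LPS libraries lay on opposite sides of UT at every time. Flt1, a receptor of vascular growth factors, rose from 37 and 25 to 381 and 360 at 1 h of IL-4 (3.40). The fall on the LPS side was deepest at Ptgs1 (-3.19), the constitutive cyclooxygenase, and Clec10a (-2.98). Mrc1, the mannose receptor, did not pass after IL-4 (0.82) and fell after LPS (-1.97).

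The shares of higher and lower elements after LPS among components of the receptors' own pathways are to be read beside the 29% and 24.5% of all tested CREs. Of 23 TLR4 pathway elements, 7 rose and 2 fell after LPS, and 0 were called after IL-4 (limma), where 7 were higher and 5 lower at an unadjusted p under 0.05. Ikbkb (2.01), Tab2 (1.71), Ticam1 (1.56) and Tbk1 (1.35) were among the rises, and the receptor's own gene Tlr4, with 867 and 853 in UT, fell (-1.09 on the log2 scale). Of 20 IL-4 receptor and JAK-STAT elements, 7 rose and 4 fell after LPS, and 1, Jak2, rose after IL-4 (1.22). Jak2, with 235 and 255 in UT, also rose after LPS (2.73), while Stat6, with 694 and 691, fell (-1.27). Costimulation and class II genes gave 8 rises and 1 fall among 14 elements after LPS and 3 rises after IL-4, led by Cd40, the receptor for T-cell help, which held 98 and 80 in UT and rose by 3.30 on the log2 scale after LPS and 2.14 after IL-4.

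Of 18 elements of macrophage lineage genes 9 fell and 1 rose after LPS, and 1 fell after IL-4. Lyz2, the gene of lysozyme, went from 653 and 641 to 498 and 556 at 30 min, 299 and 311 at 1 h, 124 and 132 at 2 h and 316 and 255 at 4 h (log2 difference -2.29 ± 0.13 at 2 h, adjusted p = 3.4e-16), and Laptm5, with 735 and 687 in UT, fell (-2.73). Itgam, which encodes CD11b, was lowest at 30 min of LPS, at 124 and 144 against 666 and 606 in UT, and fell after IL-4 as well (-1.80). Spi1 did not pass after either stimulus (0.26 and -0.36). Lysosome genes had 11 falls and 0 rises among 28 elements after LPS (limma), and at an unadjusted p under 0.05 16 were lower and 10 higher. After IL-4 they had 0 calls (limma), with 8 higher and 8 lower at an unadjusted p under 0.05. Psap, the precursor of the saposins, was down at 30 min and returned, with 705 and 593 in UT and 94 and 129 at 30 min, 269 and 240 at 1 h, 530 and 550 at 2 h and 893 and 817 at 4 h after LPS. Elements of cell cycle and replication genes had 12 falls and 4 rises among 32 after LPS, with Ccnb2, a mitotic cyclin (130 and 141 in UT, -2.14 after LPS), Ccnd1 (-2.01) and E2f2 (-1.92) lower and Ccnd2 (1.93) and Cdk6 (1.24) higher. Beside the LPS counts of these 3 lists stand 14.4% higher and 16.8% lower promoter elements, and 29% and 24.5% of all tested CREs.

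Genes that every cell uses were mostly uncalled, as were promoter elements as a whole. Of all tested promoter elements 14.4% rose and 16.8% fell after LPS, and 4.94% and 2.52% after IL-4. Over all tested CREs these shares were 29%, 24.5%, 13.6% and 11%. After LPS there were 4 rises among 54 ribosomal protein elements, 2 rises and 1 fall among 40 of the respiratory chain, 7 rises among 31 of the proteasome and 5 rises among 40 of RNA polymerase II and Mediator. After IL-4 3 ribosomal elements rose, although the list's median was 0.18, 0.51, 0.71 and 0.52 over the 4 times, above the promoter medians given earlier, and 53 of the 54 were higher at an unadjusted p under 0.05. Among the other 3 lists 0 were called after IL-4 (limma), while 28 respiratory, 13 proteasome and 16 polymerase and Mediator elements were higher and 1, 1 and 2 lower at an unadjusted p under 0.05. The LPS rises included Rps24 (1.62), Psma5 (1.63), Psma6 (1.61) and Polr2g (2.12). Several calls of this group, Rpl35 and Ndufs4 among them, were close to the threshold and did not hold under another pseudocount or scaling. Med11 held 665 and 731 in UT, 668 and 579 at 30 min, 626 and 572 at 1 h, 668 and 625 at 2 h and 574 and 599 at 4 h after LPS and 586 and 571 at 30 min, 541 and 585 at 1 h, 621 and 527 at 2 h and 546 and 570 at 4 h after IL-4.

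The remaining lists gave small counts after LPS, where 14.4% of promoter elements rose and 16.8% fell, and 29% and 24.5% of all tested CREs. Glycolysis genes had 5 rises, with Pfkfb3 (1.56), and 1 fall, Pdk1 (-1.54), among 20. Sterol and fatty acid synthesis genes had 2 rises and 2 falls among 24. The NRF2 and ATF4 stress list had 3 rises, with Slc7a11 (2.03), the cystine transporter, and 2 falls among 19. Enzymes and readers of H3K27 acetylation or methylation had 2 rises and 3 falls among 19, with Kdm6b, an H3K27 demethylase, rising from 778 and 791 to 2039 and 1989 at 30 min. Histone genes had 6 falls and 0 rises among 12 (limma), with 12 lower and 0 higher at an unadjusted p under 0.05, and 29.7% of the words of H3c6, 1 of the 6, occur elsewhere in the genome. Of 11 reference genes 1 rose, B2m (1.37), and 1 fell, while Gapdh was not called. After IL-4 1 sterol gene, Fasn (1.06), and 1 stress gene, Chac1 (1.40), rose, 1 H3K27 enzyme, Kat2b (-1.33), fell. Glycolysis, histone and reference elements had 0 calls after IL-4 (limma), where at an unadjusted p under 0.05 11, 1 and 6 were higher and 3, 5 and 1 lower.

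Sequence features that the rule had not used differed between responding and uncalled promoters. In the 300 bases from 250 before to 50 after the start, 4977 elements (43.3%) were CpG high (observed to expected ratio of at least 0.75 and at least 55% GC), 4060 intermediate and 2470 (21.5%) CpG low (ratio under 0.45). Median UT levels were 172.5, 137 and 82 normalized reads. After LPS 23.4% of CpG high, 26.8% of intermediate and 56.0% of CpG low elements were called, and after IL-4 4.76%, 5.10% and 17.8%. The LPS calls of CpG low elements were 571 rises and 683 falls. Elements with starts on both strands were called in 14.2% after LPS and 2.32% after IL-4, those with starts on 1 strand in 33.2% and 8.05%. The share called also grew with the distance of the centre from the start, from 26.0% within 250 bp to 38.6% at 250 to 500 bp and 47.3% at 500 to 1000 bp after LPS, and through 5.92%, 9.35% and 12.6% after IL-4. CpG class, level and distance go together, and their separate parts were not tested.

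**Figure D3:**
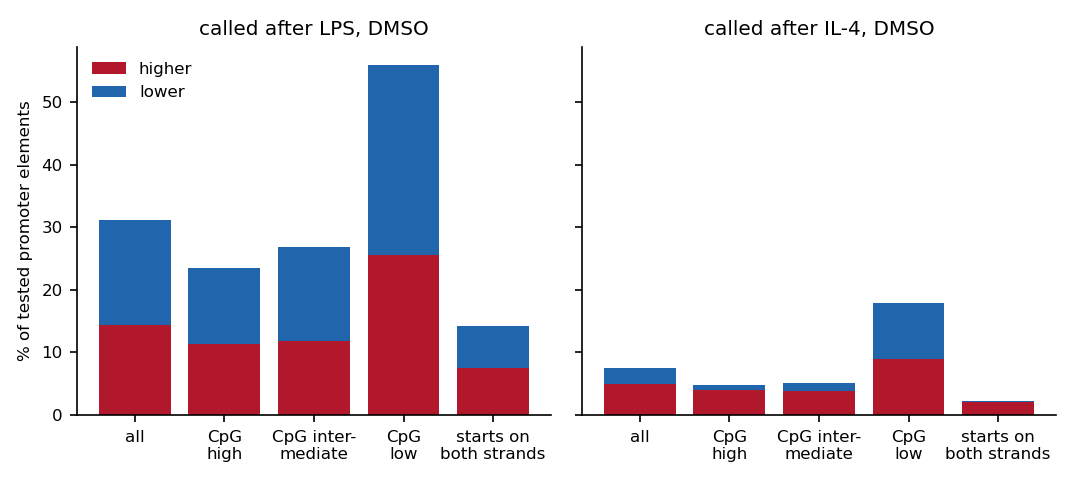
Share of tested promoter elements called after LPS (left) and IL-4 (right) in DMSO-treated cells, in percent, over all promoter elements, the 3 CpG classes and elements with starts on both strands, with rises in red and falls stacked on them in blue. The CpG low bar reached 56.0% after LPS and 17.8% after IL-4, and that of elements with starts on both strands 14.2% and 2.32%.

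Motif letters in the same windows were also unequally spread. Of all tested promoter elements 31.2% were called after LPS, 14.4% as rises and 16.8% as falls. After IL-4 these shares were 7.46%, 4.94% and 2.52%. NF-kB letters (GGANTTTCC) were in 149 members (1.29%, against 1.26% of 27025 RefSeq promoters of the same length), and of the 144 tested 47 rose and 20 fell after LPS. IRF letters (GAAANNGAAA) were in 408 members (3.55%, against 3.52% of the RefSeq promoters), with 132 rises and 66 falls among 402. STAT6 letters (TTCNNNNGAA) were in 660 (5.74%, against 7.05%), with 72 rises and 7 falls among 637 after IL-4. Among the 410 promoters with LPS rises over 2, IRF letters were in 12.2% and NF-kB letters in 4.39%, against 2.69% and 1.01% of promoters not called after LPS. The AP-1 letters TGANTCA (in 7.89% of the RefSeq promoters) and the TATA letters TATAAA (in 14.2%) were in 10.5% and 13.9% of these 410, against 4.36% and 6.08%. In the 78 with IL-4 rises over 2, STAT6 letters were in 19.2%, against 5.51% of promoters not called after IL-4. NRF1 letters (GCGCNTGCGC) went the other way, being in 1110 members (9.65%, against 4.61%), with 16.2% called after LPS and 3.27% after IL-4. Letters of PU.1 (GAGGAAGT) were in 402 members (3.27% of the RefSeq promoters hold them), of which 72 rose (18.2% of those tested) and 101 fell (25.5%) after LPS, beside 14.4% and 16.8% of promoter elements. The cyclic AMP response letters TGACGTCA were in 373 members and 1.77% of the RefSeq promoters, with 68 rises and 20 falls among 368 after LPS and 20 rises among 364 after IL-4 (5.49%, beside 4.94% of promoter elements). A window can hold several of these matches, and the elements counted for 1 motif may be counted for another. The CpG low class held 60% of the LPS rises over 2 and 59.0% of the IL-4 rises over 2.

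LPS and IL-4 were also compared directly at each time, in 1 fit of all 18 DMSO libraries, since both courses share the UT libraries. Of 11057 promoter elements 3753 differed (33.9%, against 58.4% of 50587 CREs). After LPS 1365 were higher (12.3%, against 29.2%) and 2388 lower (21.6%, against 29.2%). At promoters the lower elements outnumbered the higher ones, whereas over all CREs both shares were 29.2%. St8sia1, which encodes a ganglioside sialyltransferase, held 6 and 7 in UT, 10 and 1 at 30 min, 10 and 6 at 1 h, 0 and 3 at 2 h and 2 and 0 at 4 h after LPS and 54 and 47 at 30 min, 89 and 65 at 1 h, 117 and 77 at 2 h and 130 and 118 at 4 h after IL-4.

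The second question was how promoter elements vary over the CKIs. The stimulus responses were first measured again in the CKI libraries alone, with the DMSO libraries left out. Here an element was called when at least 1 time against UT gave an adjusted p below 0.01 and a log2 difference over 1 (limma). The model also held the compound. As this is not the F-test used for DMSO, the shares are not to be set against the DMSO shares. With LPS 1995 of 11507 promoter elements were called (17.3%, against 28.9% of all CREs), and with IL-4 279 (2.42%, against 8.84%). Of the elements raised by LPS in DMSO, 1590 of 1592 had the same sign in the CKI libraries and 718 were past the thresholds there, and of the lowered ones 1854 of 1858 and 1093. Median sizes were smaller, 0.94 against 1.5 for rises and -1.08 against -1.45 for falls. The elements had been chosen for DMSO differences over 1, so the DMSO medians are raised by that choice and the gap is no measure of a weaker response. For IL-4, 539 of 540 raised and 274 of 276 lowered elements kept the sign, at medians of 0.81 and -0.76. The CKIs fall into 6 runs in the order of the deposited columns, a technical split that the labels do not name as batches. Within runs the share called was 15.7% to 24.5% for LPS and 1.79% to 4.85% for IL-4.

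By CKI, the LPS-raised promoters kept a positive median in nearly all. At 2 h of LPS the median of the 1592 elements over CKIs was lowest with AZD2014, an mTOR inhibitor (0.22), and highest with Refametinib, a MEK inhibitor (1.26), beside 1.23 in DMSO. The medians over all promoters of these CKIs at 2 h were -0.56 and 0.16, also the lowest and the highest. At 30 min the median was above 0 in 57 of 58 CKIs, and the other was PH797804, a p38 inhibitor (-0.45). In that library the median over all promoters was itself -1, the lowest of the CKIs at this time, so that the raised set lay above the other promoters there. The IL-4-raised promoters had medians above 0 in every CKI at every time measured, with the lowest value of 0.17 for Talmapimod, also a p38 inhibitor, at 2 h. These are values of groups that mostly hold 1 library, and they carry no test.

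Against DMSO, each CKI was given 1 coefficient per element, averaged over UT and the 4 times, and called at an adjusted p below 0.05 (limma, Benjamini-Hochberg within each CKI) and a size over 0.5 on the log2 scale. Most CKIs had 1 library per time, so libraries of different times stood in for replicates, with error pooled over all compounds. The p-values of single CKIs therefore do not measure the spread between cultures or between runs. Of 667406 pairs of promoter element and CKI in the LPS course 131221 were called (19.7%, against 36.4% of the pairs of all CREs), and of 667290 in the IL-4 course 113119 (17.0%, against 39.2%). Lower pairs were 46614 after LPS (6.98%, against 4.04%) and 21677 after IL-4 (3.25%, against 3.03%). The direction of the calls followed the level of the element. Lower calls were 1.76% of the LPS calls in the lowest bin of level and then 20.9%, 60%, 88.6% and 96.6%, and in the IL-4 course 1.74%, 16.7%, 46.1%, 72.5% and 89.3%. The lower contrast of the CKI libraries, given above, moves in the same way, weak elements being higher and strong ones lower than in DMSO, and its part in these calls was not tested.

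The counts depended on the scaling and on the reference. Of the LPS calls 35.5% were lower as deposited, and 69.0% of 25235 after quantile normalization, 64.3% of 166949 after median-ratio rescaling, 72.7% of 13095 against the mean of all CKIs in place of DMSO and 58.8% of 74698 with a mean of at least 50. Of the IL-4 calls 19.2% were lower as deposited, 66.2% of 31824 after quantile normalization, 66.7% of 179771 after median-ratio rescaling and 52.1% of 11339 against the mean of all CKIs. Per CKI, LPS calls ran from 86 with ONO4059analogue, 91 with Refametinib and 116 with Selumetinib to 4283 with Omipalisib, 4578 with AZD2014 and 4587 with PH797804, with a median of 2191. Run medians of these counts were 3364.5, 1725.5, 2006.5, 366, 1950 and 2997.5, beside median contrasts of 11.1, 17.9, 19.0, 36.6, 30.7 and 13.0. After LPS the run with the fewest calls had the highest contrast and that with the most calls the lowest. In the IL-4 course the run medians of calls were 2549.5, 2151, 1721, 645, 1559.5 and 2733. There the run with the fewest calls again had the highest contrast, but run 6 had the most calls and run 1 the lowest contrast. At LPS-raised elements 56.9% of calls were lower, against 21.1% at LPS-lowered and 43.1% at uncalled elements. The DMSO libraries that set these classes were also the reference of the coefficients. Raised elements are thereby more likely to come out lower with a CKI, and lowered ones higher. The classes also differed in level, with median means of 181, 137 and 154 normalized reads. This order is thus no measure of a weaker response, and its cause was not tested.

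Promoter elements were spread less over the CKIs than other CREs. The median SD of an element's 58 coefficients was 0.22 after LPS and 0.18 after IL-4, against 0.32 and 0.35 for the other CREs. Within runs the promoter medians were 0.17 and 0.14. By bin of level, the LPS medians were 0.42, 0.34, 0.26, 0.21 and 0.20 for promoter elements and 0.45, 0.36, 0.29, 0.24 and 0.22 for the others. After quantile normalization the order was turned in bins 2 and 3, at 0.28 and 0.26 for promoter elements against 0.27 and 0.25 after LPS, and 0.27 and 0.27 against 0.26 and 0.25 after IL-4. Within a bin promoter elements and other CREs thus lay closer together than over all bins. These SDs hold the error of the libraries as well as the CKIs.

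**Figure D4:**
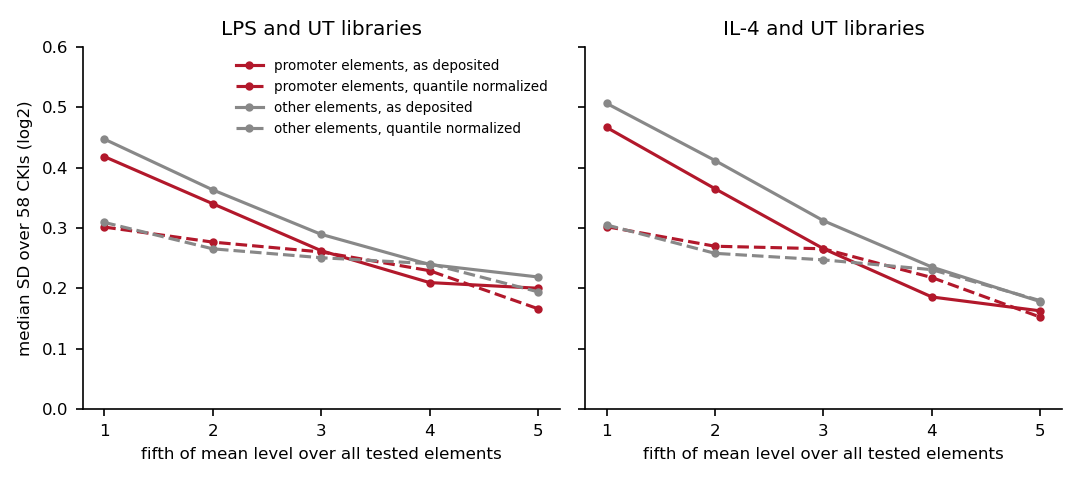
Median SD of the coefficients over 58 CKIs (vertical axis, log2 scale) by bin of mean level (horizontal axis, 5 bins of equal number from 1 for the lowest to 5 for the highest) after LPS (left) and IL-4 (right), with promoter elements in red and all other elements in grey. Solid lines are the deposited scale and dashed lines quantile normalized values. The solid promoter line fell from 0.42 to 0.20 after LPS and ran just under the grey line, and the dashed promoter line lay above the grey one in bins 2 and 3 of both courses.

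Elements with at least 100 normalized reads on average were ranked by this SD. After LPS the widest spread was at Lsp1, a leukocyte actin-binding protein gene, with an SD of 0.74 and a range from -1.22 with AZD2014 to 1.28 with SGI1776. Its SD within runs was 0.22, and its run medians were -0.54, -0.37, 0.94, 0.98, 0.89 and 1.03, so that most of its spread lay between the first pair of runs and the rest. Edc3, an mRNA decapping factor, had the same form, with an SD of 0.58, 0.14 within runs, and run medians of -0.11, -0.40, 0.96, 1.03, 0.95 and 0.85. Mbnl1, a splicing regulator, had an SD of 0.53 and 0.37 within runs and was lowest with Omipalisib (-2.62), as was Vipas39 (SD 0.54, within runs 0.34, lowest -1.89). Crebzf (SD 0.61, within runs 0.40) and Mroh2a (0.55, within runs 0.43) also kept much of their spread within runs. The mean behind the limit of 100 was mostly one of CKI libraries. In UT of DMSO Mroh2a held only 28 normalized reads and Edc3 84.5. Mroh2a was above DMSO with every CKI, by 0.46 to 2.80 after LPS and 0.91 to 3.12 after IL-4. It was called higher with 51 CKIs after LPS and with all 58 after IL-4. After IL-4 Lsp1, Crebzf, Edc3 and Mroh2a led again, followed by Etv5, an ETS factor downstream of ERK (SD 0.53, lowest -1.93 with X396), and Ccnd1, the gene of cyclin D1 (SD 0.49, lowest -2.10 with Omipalisib, lower with 27 CKIs). The steadiest elements were Hjurp (SD 0.085 after LPS and 0.080 after IL-4), Derl1, Ube4a and Tmf1 after LPS and Arl6ip5, Sbds and Bfar after IL-4. Among the markers, Arg1 was lower after IL-4 with 36 CKIs, at a median over CKIs of -0.56 and a lowest value of -1.15 with Pimasertib, a MEK inhibitor. Isg15 was lower after LPS with 37, and Spi1 with 22. These elements and Ccnd1 lie in the highest bin of level, where 16.1% of LPS pairs and 5.96% of IL-4 pairs were lower. Elements raised by the stimulus in DMSO, as Arg1 was by IL-4, are also more likely to come out lower, as said above.

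Promoters of sterol synthesis genes stood apart with a few CKIs. With Omipalisib, an inhibitor of PI3K and mTOR, 14 of 24 elements were lower in the LPS course and 16 of 24 in the IL-4 course, with list medians of -0.74 and -0.59 beside -0.14 and -0.05 for promoter elements of the same level. Idi1, of the isoprenoid branch, held 126 normalized reads in UT with Omipalisib, against 204 and 250 in DMSO. In the LPS course it then held 139, 78, 47 and 64 at 30 min, 1 h, 2 h and 4 h, where the DMSO libraries held 328 and 388, 285 and 275, 274 and 275, and 300 and 270 (coefficient -1.68 ± 0.20, adjusted p = 1.1e-12). Each Omipalisib library of Idi1 was below both DMSO libraries of its time. Sqle (-1.24), Stard4 (-1.15) and Cyp51 (-1.13) followed. In the IL-4 course Sqle, which encodes squalene epoxidase, held 35 in UT and 65, 81, 42 and 52 over the 4 times with Omipalisib, against 111 and 141 in UT of DMSO, 125 and 118 at 30 min, 171 and 194 at 1 h, 177 and 161 at 2 h and 147 and 163 at 4 h (coefficient -1.41). Each Omipalisib library of Sqle was also below both DMSO libraries of its time in this course. In the LPS course this did not hold for Sqle, with 94 at 2 h against 108 and 77 in DMSO. At 1 h of LPS it held 112 against 113 and 175. With AZD2014 11 elements of this list were lower after LPS and 9 after IL-4, and with BGT226, another PI3K and mTOR inhibitor, 8 and 11. After IL-4 10 were lower with Mubritinib, an ERBB2 inhibitor, and 9 with BMS911543, a JAK2 inhibitor. Of all 11507 promoter elements in the LPS course, 2021 were lower with Omipalisib, 2992 with AZD2014 and 763 with BGT226. Of 11505 in the IL-4 course, 952, 746 and 473 were lower with these CKIs. With Mubritinib 595 were lower there, and with BMS911543 669. In 39 of 58 CKIs after LPS and 38 after IL-4 0 elements of the list were lower, and after quantile normalization 12 and 14 were lower with Omipalisib. Omipalisib lies in the run with the lowest median contrast, and its own was 8.2. It was also the CKI of lowest depth, at a median of 716328 estimated reads per library. A normalized value there stands for fewer sequenced reads than the same value in DMSO. Omipalisib had 1 library per time, and the p-value given for Idi1 does not measure the spread between cultures. These CKIs were picked out after their values were seen, and their doses differ.

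The median coefficient of interferon-stimulated promoters after LPS was below 0 with 53 of 58 CKIs, and a median of 14 of 34 elements were called lower per CKI, 6 in the IL-4 course. Of the 1972 pairs of element and CKI 875 were lower after LPS (44.4%), against 16.1% of promoter pairs in the bin of level that holds most of the list. After IL-4 339 were lower (17.2%), against 3.68% in a bin of level that holds 12 of the 34 elements. After quantile normalization these counts were 163 (8.27%) and 195 (9.89%). Of all promoter pairs 3.78% and 4.77% were then called after LPS and IL-4, and 69.0% and 66.2% of those calls were lower. With Filgotinib, a JAK1 inhibitor, 31 of 34 were lower after LPS, at a list median of -0.77 against -0.30 for promoters of the same level, and 11 after quantile normalization. Zbp1 held 64, 136, 558 and 700 normalized reads at the 4 LPS times with Filgotinib, against 162 and 196 at 30 min, 592 and 642 at 1 h, 1399 and 1440 at 2 h and 1817 and 1391 at 4 h in DMSO (coefficient -1.26 ± 0.19, adjusted p = 1.2e-07). In the IL-4 course, which has no LPS, 16 of the list were lower. Rtp4, an interferon-induced chaperone gene, held 210, 299, 205 and 207 at the 4 IL-4 times with Filgotinib, where no DMSO library of the course was below 460 (coefficient -1.31 ± 0.11, adjusted p = 2.7e-22). The other CKIs developed against JAK kinases gave 26 lower elements after LPS and 10 after IL-4 with Momelotinib, 23 and 12 with BMS911543, 19 and 9 with Ruxolitinib, 14 and 0 with Pacritinib, and 1 and 2 with Tofacitinib, side by side and at different doses. After IL-4 the list's median with Pacritinib was 0.05 and 1 element was higher. CKIs against other kinases reached counts as high, with 32 and 15 lower elements for X396, 29 and 16 for Afatinib, an inhibitor of EGFR and ERBB2, and 31 after LPS for AZD2014. All promoter elements called lower after LPS were 1066 of 11507 with Filgotinib, 492 with Momelotinib, 917 with BMS911543 and 314 with Ruxolitinib. They were 621 with Pacritinib, 23 with Tofacitinib, 1689 with X396, 1345 with Afatinib and 2992 with AZD2014. In the same order without AZD2014, the IL-4 course gave 475 of 11505, 204, 669, 185, 84, 103, 747 and 556. The lowest list median after LPS was -0.91, with PH797804, where that of promoters of the same level was -0.51. Filgotinib, BMS911543, Afatinib, X396 and AZD2014 are in run 1, Momelotinib in run 3, Tofacitinib, Pacritinib and PH797804 in run 4 and Ruxolitinib in run 5, and each CKI lies in 1 run only.

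**Figure D5:**
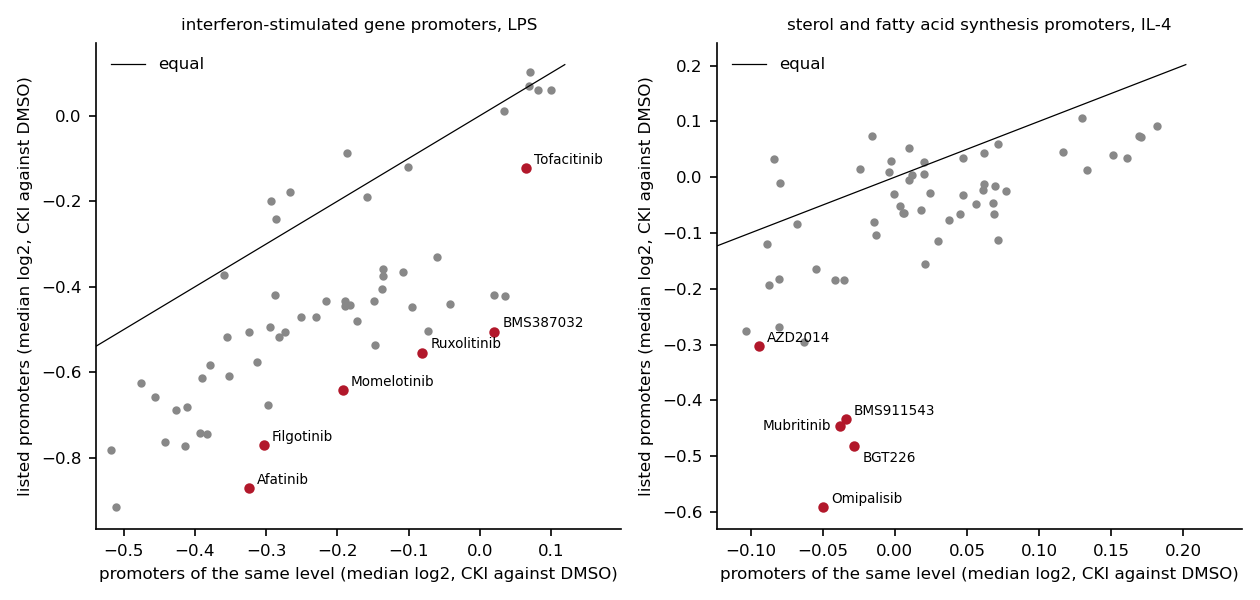
Median coefficient against DMSO (log2 scale) of the listed promoters (vertical axes) and of promoters of the same level (horizontal axes), with 1 point for each CKI and a line where both are equal, for 34 interferon-stimulated elements after LPS (left) and 24 sterol and fatty acid synthesis elements after IL-4 (right). Labelled red points were chosen after their values were seen. Omipalisib lay lowest on the right, at -0.59 against -0.05, and Filgotinib at -0.77 against -0.30 on the left.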

How the data were processed

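H3K27ac ChIP-seq was measured in 564 libraries. Per the labels, reads were aligned to mm10 with Bowtie and handled with SAMtools, whose versions are not given in the sources used here. According to the study's methods, reads were counted within 700 bp of ATAC-seq summits and scaled on invariant peaks, although the widths in the deposited table vary. The deposited values are scores: normalized reads per element that the authors had rounded to integers, so no count model was used. Depth was estimated from the spacing of low values and covers counting alone.

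Starts came from the RefSeq annotation of GRCm38. Elements were fitted with limma 3.58.1 in R 4.3.3 on log2(value + 5) after a mean of at least 10 was required, with a trended prior, and p-values were adjusted by the Benjamini-Hochberg method over all CREs. DMSO calls needed an adjusted p below 0.01 and an absolute log2 difference over 1, and CKI calls 0.05 and 0.5, the CKI model holding time and compound. The LPS and IL-4 fits used the UT libraries and those of that stimulus. No sets of genes or motifs were tested. Tables were handled with Python 3.11.15, numpy 2.4.6 and pandas 2.3.3, figures drawn with matplotlib 3.10.9, and fits tested on simulated data.

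Named elements were the largest rises and falls of each comparison, members of 27 lists of genes by their largest called difference or level, and a panel of marker genes, except that the values of a few elements are not reported here. The promoters, the 27 lists and the panel were chosen with earlier results of these data known. CKIs, and elements whose sequence is shown, were picked by value. Deviations of same-numbered DMSO libraries from their group means correlated at -0.0873 to 0.0664, so the numbers were not taken to pair them. Alternatives were other pseudocounts (1, 20), filters, scalings, windows, transcript sets, references and left-out libraries.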

Additional observations from a re-analysis of the deposited data

Results flagged for a closer look

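The differences between LPS and IL-4 at matched times were tested in 1 fit of all 18 DMSO libraries, UT included, which both courses share, and 3753 promoter elements passed. The 4 largest differences in the direction of LPS were at Fpr2 (5.65 on the log2 scale), Zfp811 (5.45), Ifi205 (4.85) and Ifnb1 (4.78). Among the 4 largest in the direction of IL-4 were Mgl2 (-4.54), St8sia1 (-4.45) and Gm33049 (-4.41). Fpr2 had 935 and 843 normalized reads at 4 h of LPS and 10 and 16 at 4 h of IL-4. Mgl2 had 11 and 21 at 4 h of LPS and 480 and 461 at 4 h of IL-4. All samples of 1 stimulus lay above those of the other at these elements and times.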

How the results depend on the processing

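Counts of called promoter elements grew when a log2 difference over 0.5 was enough, to 6213 for LPS, 3182 for IL-4 and 6949 for LPS against IL-4. A pseudocount of 20 left 516 elements for IL-4 and 197, 266, 341 and 275 at 30 min, 1 h, 2 h and 4 h. CKI pairs in the LPS course were 25235 after quantile normalization, 13095 against the mean of all CKIs and 74698 with a mean of at least 50. In the IL-4 course they were 31824, 11339 and 61015, and 179771 after median-ratio rescaling. The IL-4 response of CKI libraries gave 466, 557 and 490 elements within runs 2, 4 and 5. The median UT level became 159 over all libraries and 134 with centres within 2 kb. The cause of these shifts was not tested.

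Leaving out 1 library gave 3237 to 3553 elements for LPS (1635 to 1855, 1609 to 1735, 2289 to 2425 and 1742 to 1872 over the times), 767 to 866 for IL-4 (294 to 370, 407 to 458, 512 to 580 and 391 to 448) and 3712 to 3854 for LPS against IL-4. Without 1 DMSO replicate the CKI pairs were 98996 to 111348 for LPS and 94609 to 96060 for IL-4, and the UT median was 142 to 147. With the replicate number as a block the counts were 3440, 822 and 3751, and the block moved no count by over 1.5 times, the numbers not being shown to pair the libraries. Among the named values, 63 lost and 12 gained a call for LPS, 52 and 19 for IL-4, and 20 and 14 for their difference. No direction was reversed where the value was called in either setting. Reversals of values called in neither were not counted. Shallow CKI libraries and groups of 1 limit single CKI values.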
